A study of Mus musculus with 12 samples.

Results

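The interferon pathway was followed through 41 listed genes, chosen by symbol from the 41743 genes of a deposited expression table and all found there. They comprised 4 receptor chains, 5 sensors of foreign RNA or effectors that such RNA switches on, 6 transcription factors, 12 antiviral effectors, 8 genes of ISG15 conjugation and other induced proteins, and 6 guanylate-binding proteins and immunity-related GTPases. RNA of the whole hippocampus had been sequenced from C57Bl/6 males at an age of 12 weeks. The 6 toxicant mice had been given subcutaneous pyridostigmine bromide at 2.5 mg/kg, chlorpyrifos at 12.5 mg/kg and DEET at 7.5 mg/kg on weekdays for 2 weeks, as a model of Gulf War exposures, and tissue was taken when the injections ended. The 6 control mice are labelled Vehicle, with the same strain, sex and age, and the contents of the vehicle are not given. Each library came from a different animal per the design text, and the labels name no pooling, sort or genetic change. The deposited columns of control 4 and control 5 were identical in every gene and were counted once, as control 4-5, which left 5 controls to set against 6 toxicant libraries.

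Interferons are secreted proteins that cells release after they sense foreign nucleic acid. Type I interferons bind the receptor chains Ifnar1 and Ifnar2, and interferon gamma binds Ifngr1 and Ifngr2. Both receptors act through Janus kinases and STAT proteins. A complex that holds Stat2 and Irf9 binds the interferon-stimulated response element (ISRE), and STAT dimers bind the gamma-activated site (GAS). In brain, every major cell type carries receptors, and microglia and endothelial cells are known for strong induced programs.

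Response elements are shown for 6 members, because induction through such elements is how this class of genes became known. The 6 include neighbouring Gbp genes. The 250 bases before each start site in RefSeq (GRCm38.p6) were searched on both strands for the ISRE as GAAANNGAAA and for the GAS as TTCNNNGAA. Windows were present for 34 of the 41 members, and Ifi27, Iigp1, Mx1, Mx2, Parp14, Parp9 and Usp18 had none. An ISRE match stood in 14 of 42 member windows (33.3%) against 978 of 32851 windows (2.98%) of all genes, and a GAS match in 10 member windows (23.8%) against 2306 (7.02%). A match is a description of letters in the window and is no evidence of binding. In the 30-base stretches that follow, written 5′ to 3′ on the strand of the gene, capitals mark ISRE matches on either strand.
Isg15, chr4:156200871-156200900 (minus strand): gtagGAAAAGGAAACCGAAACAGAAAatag
Ifit1, chr19:34640785-34640814 (plus strand): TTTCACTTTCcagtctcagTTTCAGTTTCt
Gbp2, chr3:142620594-142620623 (plus strand): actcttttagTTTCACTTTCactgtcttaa
Gbp3, chr3:142559992-142560021 (plus strand): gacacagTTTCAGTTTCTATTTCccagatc
Gbp7, chr3:142530273-142530302 (plus strand): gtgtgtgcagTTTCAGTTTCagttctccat
Ifitm2, chr7:140955988-140956017 (minus strand): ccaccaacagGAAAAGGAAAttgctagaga
The stretch of Isg15 held 3 overlapping matches, that of Ifit1 held 2 separate ones and that of Gbp3 held 2 overlapping ones, while the others held 1. The ISRE of Bst2 overlapped a GAS match by letters shared between both motifs. No ISRE match was found in the windows of the 4 receptor chains or of Ifitm3.

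**Figure D1:**
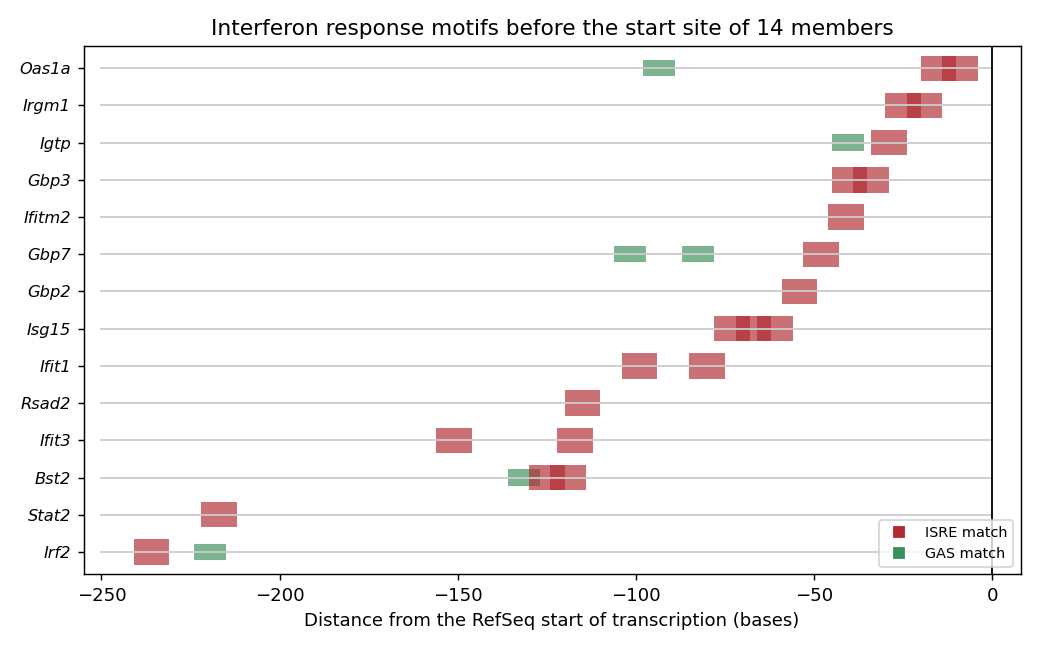
Positions of ISRE matches (red) and GAS matches (green) in the 250 bases before the RefSeq start, in bases from the start, for the 14 members with an ISRE match. The matches of Oas1a, Irgm1 and Igtp lay nearest to the start, and those of Stat2 and Irf2 farthest from it.

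Values are RPKM, read numbers scaled to gene length and sequencing depth, as the authors deposited them. The depth recovered from the steps of the values was 21.5 M to 34.9 M reads a library, with 29.6 M ± 3.61 (SD, n = 5) in the controls and 24.7 M ± 2.68 (SD, n = 6) in the toxicant group. Of these reads, 76.8% to 89.5% lay on genes of the table, or 85.4% ± 4.58 and 80.8% ± 2.68 respectively. Errors after ± are SD over these 5 and 6 libraries throughout, unless marked SE. Control 2 had the lowest share of the controls, at 78.4%, and control 1 the highest, at 89.5%. Levels of many members followed this share, so the fold change from a fit with the share as a covariate is given for each tested member. Controls 1, 3 and 6, at 87.4% to 89.5%, lay above every toxicant library, of which the highest was at 83.8%. Share and exposure therefore cannot be fully told apart, and a fit with the covariate may also take away part of a group difference. A total of 26 members passed the filter on low values (a mean of at least 0.5 RPKM) and were tested with limma on log2(RPKM + 0.5), where a fold change understates that of low genes. Those 26 had 21.5 to 2762 reads a library on average (median 112). The other 15 had 1.55 to 84.5 (median 31.3) and are described without a test.

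No member differed between the groups at an adjusted p under 0.05, and nor did any of the 13493 genes tested (0%), whose smallest adjusted p was 0.0715. With limma voom on the recovered reads 0 genes passed as well. Of the 26 tested members, 21 had a log2 fold change below 0 (80.8%), as had 70.0% of all genes tested. At an unadjusted p under 0.05, 6 members were lower (Ifnar1, Ifnar2, Ifngr1, Ifngr2, Ifitm3 and Gbp2), which is 23.1% against 17.0% of all genes. None was higher in this fit, against 3.33% of all genes. Every toxicant library lay below every control library for 1 member, Gbp2 (2.03% of all genes), and above for none (0.111% of all genes). Gbp2 passed the filter on low values only through its controls. The median log2 fold change of the tested members was -0.15, beside -0.11 over all genes tested. With no filter it was -0.076 over all 41 members, beside -0.015 over 27660 genes. The 15 members under the filter were split, 8 with a lower and 7 with a higher mean in the toxicant group. These counts stand near the background of the whole table. Median-ratio scaling of the libraries moved the median of all genes to 0.0014 and that of the members to -0.05. With that scaling 16 members were lower and 10 higher, and 49.7% of all genes were lower. Unadjusted calls over all genes then turned from 17.0% lower and 3.33% higher to 5.14% lower and 8.19% higher. Ifnar2, Ifitm3 and Gbp2 were lower at an unadjusted p under 0.05 under each of the scalings tried (median-ratio, quantile, GC trend removed, and adjustment for reads on genes).

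The 4 receptor chains were all lower in the toxicant group, with a median log2 fold change of -0.27. Ifnar2 was at 4.19, 3.16, 4.95, 3.82 and 4.23 RPKM in controls 1, 2, 3, 4-5 and 6, and at 2.79 to 3.34 RPKM with a median of 3.09 in the 6 toxicant libraries. Ifnar2, the chain that gives the type I receptor its high affinity, had 4 of 6 toxicant libraries below the lowest control, and control 2 was that lowest control. Its means were 4.07 ± 0.651 RPKM in the controls and 3.08 ± 0.216 RPKM in the toxicant group, a log2 fold change of -0.34 ± 0.095 (SE) with a limma adjusted p = 0.193. Ifngr1 was at 4.25, 3.18, 3.24, 3.68 and 3.80 RPKM in controls 1, 2, 3, 4-5 and 6, and at 2.62 to 3.33 RPKM with a median of 2.92 in the 6 toxicant libraries. Ifngr1, the ligand-binding chain of the interferon gamma receptor, also had 4 toxicant libraries below the lowest control, again control 2. This gave a log2 fold change of -0.24 ± 0.087 (SE), with a limma adjusted p = 0.219.

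The other receptor chains showed the same order with smaller or noisier differences. Ifnar1, the second chain of the type I receptor, was at 5.67 ± 0.381 RPKM in the controls and 4.97 ± 0.346 RPKM in the toxicant group (log2 fold change -0.17 ± 0.070 SE, limma adjusted p = 0.225), and 5 toxicant libraries lay below the lowest control. Ifngr2, the signalling chain of the interferon gamma receptor and the most abundant of the 4, was at 15.5 ± 2.95 RPKM in the controls and 12.5 ± 1.41 RPKM in the toxicant group (log2 fold change -0.29 ± 0.12 SE, limma adjusted p = 0.232). Among the controls, Ifngr2 ranged from 12.1 RPKM in control 2 to 19.8 RPKM in control 1, the control with the largest share of reads on genes. Adjusted for that share, the log2 fold changes were -0.20 for Ifnar2, -0.15 for Ifngr1, -0.076 for Ifnar1 and -0.057 for Ifngr2, and their median was -0.11. With control 2 left out, all 4 chains passed the adjusted threshold as lower, and so did 28.1% of all genes tested. The 4 had log2 fold changes below 0 under each of the 25 alternative settings tried. Ifnar2, Ifnar1 and Ifngr2 lie close together on chromosome 16, though not necessarily next to each other (GRCm38, 91372783 to 91405589, 91485238 to 91507441 and 91547072 to 91565623). In whole tissue, fewer cells of a type and less RNA per cell cannot be told apart.

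The sensors and effectors of foreign RNA gave mixed values, with 2 of 3 tested members lower. Adar was at 15.3, 10.9, 14.9, 12.2 and 14.1 RPKM in controls 1, 2, 3, 4-5 and 6, and at 11.1 to 13.0 RPKM with a median of 11.8 in the 6 toxicant libraries. Adar, which edits adenosine to inosine in double-stranded RNA, had overlapping groups, with control 2 the lowest of all 11 libraries. Its log2 fold change was -0.17 ± 0.092 (SE, limma adjusted p = 0.276), and 0.0037 after adjustment for reads on genes. Without control 2 it was -0.24 (limma adjusted p = 0.0386). Trim25 was at 0.681, 0.674, 1.05, 0.892 and 0.678 RPKM in controls 1, 2, 3, 4-5 and 6, and at 0.527 to 0.761 RPKM with a median of 0.661 in the 6 toxicant libraries. For Trim25, a ubiquitin ligase that aids Ddx58 signalling, controls 3 and 4-5 stood above the rest, while the other controls lay within the toxicant range. The fitted log2 fold change was -0.16 ± 0.10 (SE), with a limma adjusted p = 0.314, and -0.087 with the covariate. Eif2ak2, the kinase PKR that halts translation, was at 0.678 ± 0.227 RPKM in the controls and 0.785 ± 0.204 RPKM in the toxicant group, and its log2 fold change of 0.13 ± 0.15 (SE) became -0.15 with the covariate. Under the filter, the RNA helicase Ddx58 (RIG-I) was at 0.489 ± 0.0730 and 0.405 ± 0.0526 RPKM in the control and toxicant groups, and Ifih1 (MDA5) at 0.201 ± 0.0810 and 0.202 ± 0.0358 RPKM.

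The transcription factors had all 5 tested members at a lower mean, with a median log2 fold change of -0.10 beside -0.11 for all genes. Irf1 was at 1.51, 1.20, 1.72, 1.51 and 1.58 RPKM in controls 1, 2, 3, 4-5 and 6, and at 1.09 to 1.51 RPKM with a median of 1.24 in the 6 toxicant libraries. Irf1, a factor induced by interferon gamma, had overlapping groups, with toxicant 1 as high as the middle of the controls. This gave a log2 fold change of -0.18 ± 0.091 (SE), with a limma adjusted p = 0.262, and without control 2 of -0.24 (limma adjusted p = 0.0487). Irf3 was at 4.03, 3.82, 4.03, 3.91 and 4.00 RPKM in controls 1, 2, 3, 4-5 and 6, and at 2.88 to 4.02 RPKM with a median of 3.63 in the 6 toxicant libraries. Irf3, which is activated by phosphorylation after nucleic acid sensing, varied little among controls, and 4 toxicant libraries lay below all of them. The fitted log2 fold change was -0.14 ± 0.081 (SE), with a limma adjusted p = 0.289, and its exons overlap those of Bcl2l12 on the other strand. With the covariate the log2 fold changes were -0.062 for Irf1 and -0.18 for Irf3.

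For the other factors, the small differences depended on the setting. Stat2 was at 2.59, 2.92, 2.79, 3.20 and 2.49 RPKM in controls 1, 2, 3, 4-5 and 6, and at 2.32 to 3.07 RPKM with a median of 2.78 in the 6 toxicant libraries. The groups of Stat2 overlapped over most of their range, and its log2 fold change of -0.037 ± 0.088 (SE) was 0.08 under median-ratio scaling. Irf9, the DNA-binding partner of the STATs, was at 1.52 ± 0.197 RPKM in the controls and 1.46 ± 0.309 RPKM in the toxicant group (limma adjusted p = 0.762), and Irf2, a repressor of interferon responses, at 2.46 ± 0.124 RPKM in the controls and 2.27 ± 0.142 RPKM in the toxicant group (limma adjusted p = 0.327). Median-ratio scaling also turned the signs of these genes, to 0.05 for Irf9 and 0.01 for Irf2. The covariate moved the log2 fold changes the other way for Stat2, to -0.13, and for Irf9, from -0.048 to -0.23, and gave -0.048 for Irf2. Irf7 was at 0.458, 0.285, 0.350, 0.371 and 0.296 RPKM in controls 1, 2, 3, 4-5 and 6, and at 0.171 to 0.543 RPKM with a median of 0.334 in the 6 toxicant libraries. Irf7, the factor that amplifies type I interferon production, was under the filter, and the toxicant libraries spread on both sides of the controls.

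**Figure D2:**
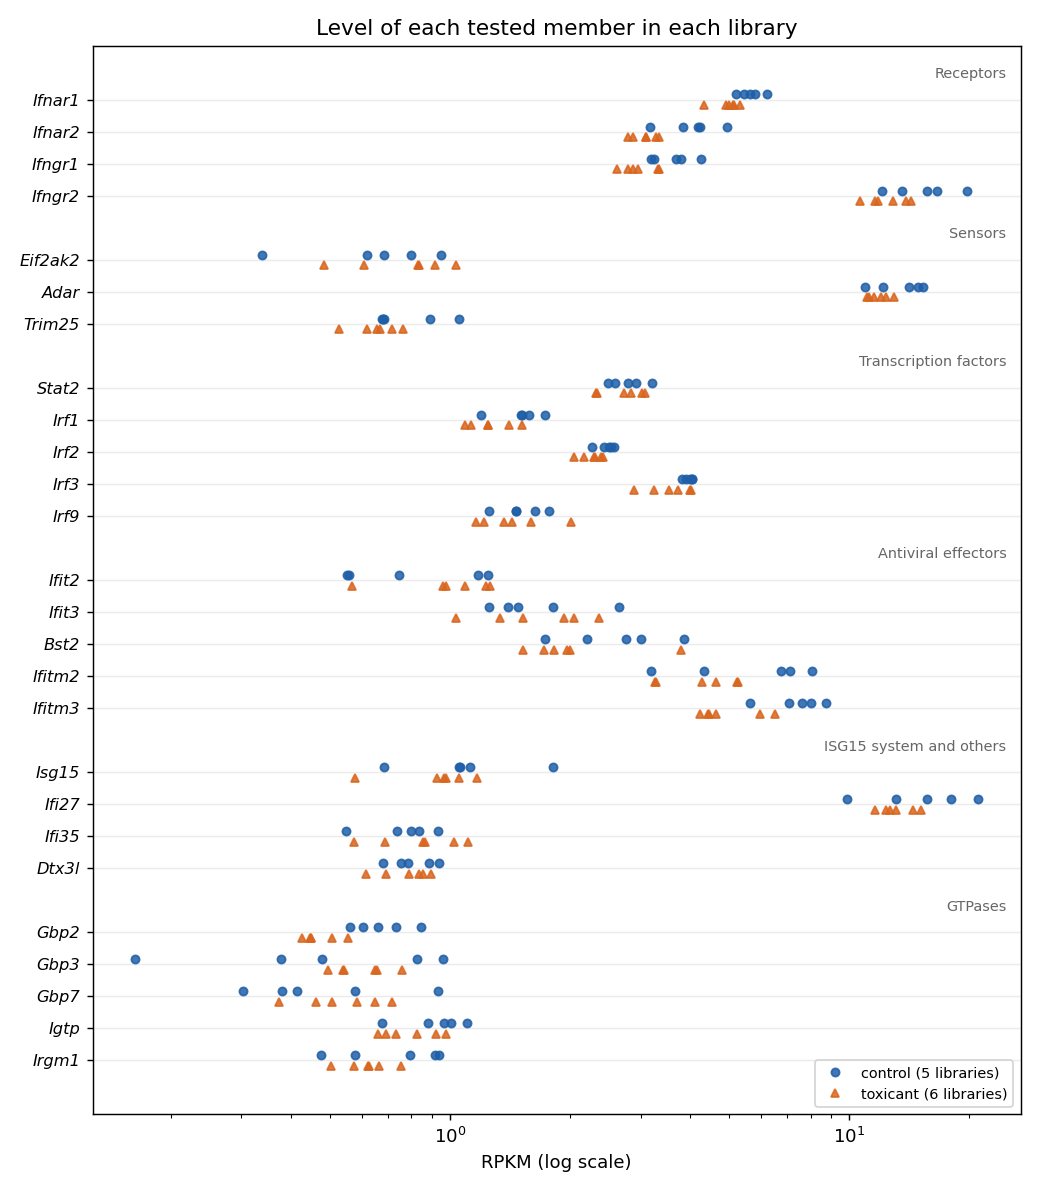
RPKM on a log scale (horizontal axis) of each of the 26 tested members, with 1 point per library, 5 controls in blue and 6 toxicant libraries in orange. The groups overlap for every member plotted except Gbp2, and Gbp3 and Eif2ak2 spread widely among the controls.

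The antiviral effectors held Ifitm3, the member with the largest difference of the 26 tested, while most classic induced genes were near or under the filter. Ifitm3 was at 8.02, 5.63, 8.75, 7.06 and 7.62 RPKM in controls 1, 2, 3, 4-5 and 6, and at 4.23 to 6.50 RPKM with a median of 4.55 in the 6 toxicant libraries. Ifitm3, a membrane protein that blocks viral entry from endosomes, had 4 toxicant libraries below the lowest control, and toxicant 2 and toxicant 6 lay above control 2. Its mean was 7.42 ± 1.17 RPKM in the controls and 5.04 ± 0.956 RPKM in the toxicant group, 32.0% lower, with a log2 fold change of -0.52 ± 0.13 (SE) and a limma adjusted p = 0.172. After adjustment for reads on genes it was -0.37, and without control 2 -0.61 (limma adjusted p = 0.0227). It was also below 0 under each alternative tried.

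The related Ifitm2 and the tethering factor Bst2 had wider groups. Ifitm2 was at 7.12, 4.33, 8.08, 3.19 and 6.75 RPKM in controls 1, 2, 3, 4-5 and 6, and at 3.27 to 5.27 RPKM with a median of 4.45 in the 6 toxicant libraries. Control 4-5 was the lowest of all 11 libraries for Ifitm2, so no toxicant library lay below the controls. Its log2 fold change was -0.36 ± 0.21 (SE, limma adjusted p = 0.291), and -0.14 with the covariate. Bst2 was at 3.01, 1.73, 3.86, 2.20 and 2.76 RPKM in controls 1, 2, 3, 4-5 and 6, and at 1.52 to 3.80 RPKM with a median of 1.89 in the 6 toxicant libraries. Bst2, which holds budding virions to the cell surface, was high in toxicant 2 and in control 3, while the other 5 toxicant libraries lay at or below 1.99 RPKM. The fitted log2 fold change was -0.30 ± 0.20 (SE), with a limma adjusted p = 0.334, and -0.11 with the covariate. Toxicant 2 and control 3 were also the libraries with the highest sums of choroid plexus markers in their groups, at 1816 and 2907 RPKM, against at most 644 RPKM in any other library. Without these libraries, a choice made after the data had been seen, the log2 fold changes were -0.33 for Bst2, -0.29 for Ifitm2 and -0.51 for Ifitm3, and no member passed the adjusted threshold. Ifitm2 and Ifitm3 are close paralogs on chromosome 7 (140954837 to 140955987 and 141009586 to 141010770), and reads may be divided between them in a way the sources used here do not describe.

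The Ifit genes encode proteins that bind viral RNA, and none of them separated the groups. Ifit1 was at 0.332, 0.454, 0.347, 0.554 and 0.411 RPKM in controls 1, 2, 3, 4-5 and 6, and at 0.221 to 0.650 RPKM with a median of 0.396 in the 6 toxicant libraries. Toxicant libraries 4 and 5 were the highest of all and toxicant 2 the lowest, so the toxicant group enclosed the controls. Ifit2 was at 0.855 ± 0.335 RPKM in the controls and 1.01 ± 0.250 RPKM in the toxicant group (log2 fold change 0.18 ± 0.17 SE, limma adjusted p = 0.468). Ifit3 was at 1.72 ± 0.558 RPKM in the controls and 1.71 ± 0.494 RPKM in the toxicant group (log2 fold change -0.0063 ± 0.18 SE, limma adjusted p = 0.982), and its sign turned under median-ratio scaling, to 0.09, and was -0.038 with the covariate. Ifit2's sign turned with the covariate, to -0.076. Among effectors under the filter, mean levels in the control and toxicant groups were 0.174 ± 0.0149 and 0.135 ± 0.0258 RPKM for Rsad2 (viperin), 0.296 ± 0.0353 and 0.256 ± 0.0372 RPKM for Oasl2, 0.133 ± 0.0454 and 0.141 ± 0.0596 RPKM for Oas1a, 0.142 ± 0.0761 and 0.158 ± 0.0383 RPKM for the exonuclease Isg20 and 0.108 ± 0.0511 and 0.0996 ± 0.0291 RPKM for Mx2. Rsad2 had 5 toxicant libraries below its lowest control. Mx1 had 0 to 5 reads a library, with 3 controls at 0, so no fold is given. Mx2 is annotated as a polymorphic pseudogene in GENCODE.

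ISG15 conjugation and the other induced proteins showed no separation between groups. Isg15 was at 1.05, 1.81, 0.684, 1.12 and 1.06 RPKM in controls 1, 2, 3, 4-5 and 6, and at 0.579 to 1.17 RPKM with a median of 0.969 in the 6 toxicant libraries. Isg15, the ubiquitin-like modifier, rested on 12 to 42 reads a library, and control 2 was the highest of all libraries while control 3 lay within the toxicant range. Its log2 fold change was -0.17 ± 0.16 (SE), with a limma adjusted p = 0.458, and -0.29 with the covariate. Ifi27 was at 18.0, 9.89, 21.1, 13.1 and 15.7 RPKM in controls 1, 2, 3, 4-5 and 6, and at 11.6 to 15.1 RPKM with a median of 12.9 in the 6 toxicant libraries. Ifi27, a small mitochondrial protein, was the other way round, with control 2 the lowest and control 3 the highest library. Its log2 fold change was -0.19 ± 0.16 (SE, limma adjusted p = 0.416), and 0.060 with the covariate. Without control 2 it was -0.33 (limma adjusted p = 0.0470), and without control 3 and toxicant 2 it was -0.11.

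Ifi35 was at 0.769 ± 0.143 RPKM in the controls and 0.851 ± 0.199 RPKM in the toxicant group (limma adjusted p = 0.619), a higher mean, and Dtx3l, a ubiquitin ligase that pairs with Parp9, at 0.807 ± 0.104 RPKM in the controls and 0.780 ± 0.107 RPKM in the toxicant group (limma adjusted p = 0.815). The sign of Dtx3l turned to 0.05 under median-ratio scaling. With the covariate the log2 fold changes were 0.25 for Ifi35 and -0.042 for Dtx3l. Ifi35 was the 1 member of 26 higher at an unadjusted p under 0.05 with the GC trend removed, at 0.26. In that fit 6.77% of all genes were higher at the same level. Under the filter, mean levels in the control and toxicant groups were 0.208 ± 0.0416 and 0.196 ± 0.101 RPKM for Usp18, which removes ISG15 from proteins and restrains the type I receptor, 0.469 ± 0.110 and 0.406 ± 0.0448 RPKM for Xaf1, 0.177 ± 0.0447 and 0.165 ± 0.0297 RPKM for Parp14 and 0.429 ± 0.115 and 0.452 ± 0.101 RPKM for Parp9. Parp9 and Dtx3l overlap in their exons on opposite strands, and whether counting used strand is not given in the sources used here. Exons of Irf1, Irf7, Adar, Eif2ak2, Ifi35, Usp18 and Gbp2 also overlap a gene on the other strand, and those of Irf9, Ifnar2, Ifitm2, Gbp7 and Parp14 a gene on the same strand. Reads of these members may be shared with the overlapping gene, and the Ifit, Oas, Mx and Gbp genes have close paralogs among which reads may be divided.

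The GTPases act on membranes around intracellular microbes, and 3 of 5 tested members had lower means. Gbp2 was at 0.561, 0.661, 0.733, 0.843 and 0.604 RPKM in controls 1, 2, 3, 4-5 and 6, and at 0.426 to 0.555 RPKM with a median of 0.449 in the 6 toxicant libraries. Gbp2 was the 1 member whose groups did not overlap: the highest toxicant library, toxicant 5, lay just below the lowest control, control 1. Its means were 0.680 ± 0.111 RPKM in the controls and 0.471 ± 0.0489 RPKM in the toxicant group, a log2 fold change of -0.28 ± 0.089 (SE) with a limma adjusted p = 0.207. Adjusted for reads on genes, it was -0.29, and without control 2 -0.28 (limma adjusted p = 0.0422). The control mean of Gbp2 lay above the filter of 0.5 RPKM and the toxicant mean below it. It was therefore tested only through its controls, and its separation is given as description only. Gbp2 rested on 24 to 62 reads a library, with 34 in toxicant 5 and 40 in control 1. With a minimum of 1 RPKM it was not tested. Igtp was at 1.10, 0.967, 0.674, 0.880 and 1.01 RPKM in controls 1, 2, 3, 4-5 and 6, and at 0.659 to 0.976 RPKM with a median of 0.779 in the 6 toxicant libraries. Igtp (Irgm3) overlapped between groups (log2 fold change -0.13 ± 0.10 SE, limma adjusted p = 0.389), and its exons overlap those of Irgm2 on the same strand.

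The neighbours of Gbp2 on chromosome 3 (142620602 to 142638008), Gbp3 and Gbp7, had overlapping groups. Gbp3 was shown by library after its values had been seen. Gbp3 was at 0.162, 0.959, 0.479, 0.828 and 0.378 RPKM in controls 1, 2, 3, 4-5 and 6, and at 0.495 to 0.759 RPKM with a median of 0.595 in the 6 toxicant libraries. The controls alone spanned 5.91-fold, from control 1 to control 2, and enclosed every toxicant library. Gbp7 was at 0.522 ± 0.252 RPKM in the controls and 0.548 ± 0.126 RPKM in the toxicant group, with a control range of 3.10-fold. Log2 fold changes were 0.11 ± 0.18 (SE) for Gbp3 and 0.059 ± 0.15 (SE) for Gbp7 (limma adjusted p = 0.656 and 0.781), and the covariate turned them to -0.20 and -0.19. Irgm1 was at 0.740 ± 0.206 RPKM in the controls and 0.624 ± 0.0842 RPKM in the toxicant group (limma adjusted p = 0.446), and Iigp1, under the filter, had means of 0.148 ± 0.0994 and 0.193 ± 0.0373 RPKM in the control and toxicant groups. The covariate gave -0.10 for Igtp and -0.24 for Irgm1.

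**Figure D3:**
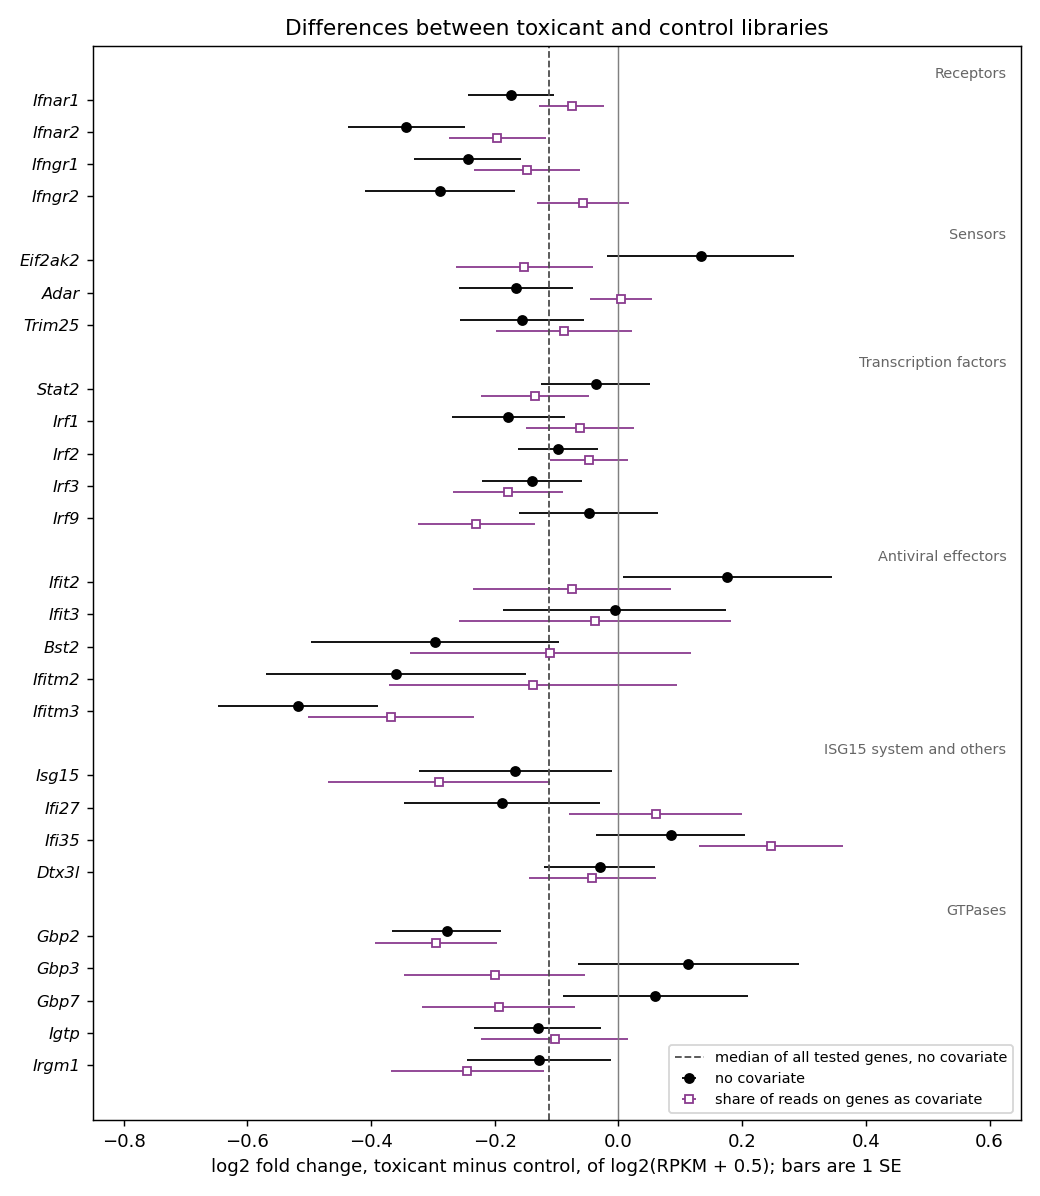
Log2 fold change of toxicant against control (horizontal axis, bars 1 SE) for the 26 tested members by role, from the fit without (black) and with (purple) adjustment for the share of reads on genes. All 4 receptor chains lie below the all-gene median of -0.11 in the fit without the covariate, and Ifitm3 is farthest from 0.

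Tested members with a promoter window fell into those with and those without an ISRE match, and Ifi27 had no window. Of 11 tested members with a match, 9 had a log2 fold change below 0 (median -0.13), and of 14 without one, 11 did (median -0.16). Of all genes tested, 70.0% did (median -0.11). Gbp2, Gbp3 and Gbp7 each carried an ISRE match, as printed above, and their log2 fold changes were -0.28, 0.11 and 0.059, or -0.29, -0.20 and -0.19 with the covariate. Differences between the 3 genes were not tested.

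The controls differed among themselves in 2 ways that crossed the roles. Control 2 was the lowest control, and control 1 or control 3 the highest for 13 of the 41 members, among them the 4 receptor chains, Adar, Irf1, Ifitm3 and Ifi27. Of the 26 tested members 11 did so, beside 46.1% of all genes tested. The opposite order, control 2 highest and control 1 lowest, held for 7 members (Ifih1, Eif2ak2, Parp14, Parp9, Gbp3, Gbp7 and Irgm1), 4 of them among the tested, beside 19.7% of all genes tested. Eif2ak2 was at 0.338, 0.950, 0.619, 0.796 and 0.685 RPKM in controls 1, 2, 3, 4-5 and 6, and at 0.483 to 1.03 RPKM with a median of 0.832 in the 6 toxicant libraries. Eif2ak2, shown by library after its values had been seen, ran among the controls in the reverse order of their share of reads on genes.

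**Figure D4:**
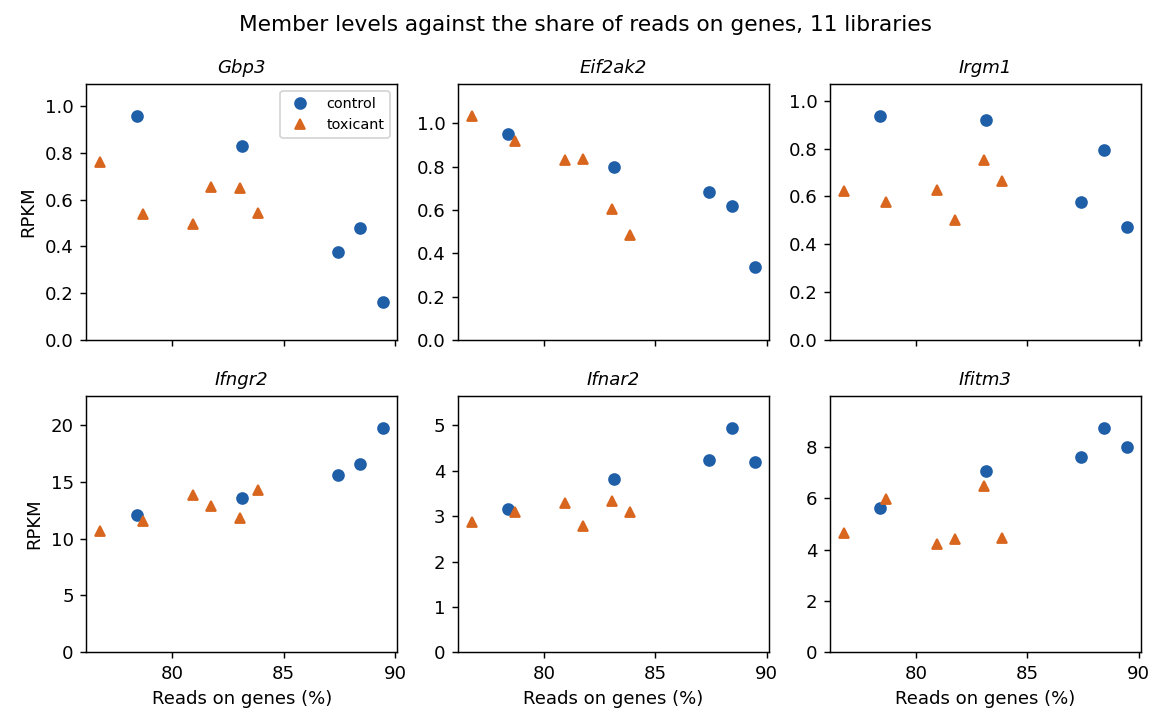
RPKM of 6 members, chosen after their values had been seen, against the percentage of reads on genes of each library, 5 controls in blue and 6 toxicant libraries in orange. Among the controls, Ifngr2 and Ifnar2 tend to be higher, and Eif2ak2 and Gbp3 lower, with more reads on genes. Among the toxicant libraries, Ifnar2 and Gbp3 show no clear order, and no toxicant library exceeds 83.8%.

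Adjusted for the share, 4 members were lower at an unadjusted p under 0.05 (Ifnar2, Irf9, Ifitm3 and Gbp2), which is 15.4% against 9.13% of all genes, and none was higher against 4.34%. The median log2 fold change was then -0.12 for the tested members and -0.03 for all genes, with 23 members lower. No member passed the adjusted threshold in that fit. Removing a trend with GC content gave a median of -0.012 for the members and turned 8 signs (Adar, Stat2, Irf3, Irf9, Ifit3, Isg15, Gbp7 and Igtp). Among single libraries left out, control 2 alone brought members past the threshold. Without it, 9 of 25 tested members passed (36.0%), all lower: the 4 receptor chains, Adar, Irf1, Ifitm3, Ifi27 and Gbp2. Their log2 fold changes ran from -0.61 for Ifitm3 to -0.20 for Ifnar1, with limma adjusted p from 0.0227 to 0.0487. They stand beside the 28.1% of all genes that passed as lower in the same fit. When control 1 was left out as well, a choice made after the data had been seen, no member passed and 2 genes of 13500 did. Beyond that adjustment, the part of the share in the members' values was not tested. Weighting libraries by how closely they followed the fitted means called 17 members and 70.8% of all genes. Of the 17, 14 were lower and 3 higher: Ifit2 at 0.38, Gbp3 at 0.32 and Gbp7 at 0.21 (limma adjusted p = 0.00324, 0.00689 and 0.0289).

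Interferon genes themselves were at or near 0. Of 12 found in the table, 6 had no read in any library, Ifnb1 among them, and the other 6 had 9 reads in all 11 libraries together, 3 in controls and 6 in toxicant libraries. No gene had more than 1 read in a library. Ifng had 1 read, in control 2. For Ifnb1, 0 reads allows up to 0.115 to 0.186 RPKM (3 reads) by library, counting error alone considered, so a low level was not detectable at this depth.

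A further list held other receptor subunits, Janus kinases, STAT proteins and their inhibitors. Of these genes, 10 were tested and 7 were lower (median log2 fold change -0.16), as were 70.0% of all genes. At an unadjusted p under 0.05, 4 were lower, beside 17.0% of all genes. None passed the adjusted threshold in any of the lists of pathway genes. Stat3 was at 3.55 ± 0.419 RPKM in the controls and 2.74 ± 0.114 RPKM in the toxicant group (log2 fold change -0.31 ± 0.078 SE, limma adjusted p = 0.172). Il10rb, a chain shared by the interferon lambda receptor, had means of 1.55 ± 0.272 and 1.18 ± 0.200 RPKM in the control and toxicant groups, and the phosphatase Ptpn11 21.2 ± 2.95 and 17.7 ± 1.32 RPKM. Of the Janus kinases, Jak1 was at 16.3 ± 1.23 RPKM in the controls and 15.0 ± 0.917 RPKM in the toxicant group (limma adjusted p = 0.313) and Tyk2 at 2.18 ± 0.220 RPKM in the controls and 2.08 ± 0.338 RPKM in the toxicant group (limma adjusted p = 0.663). Median-ratio scaling turned the sign of Jak1 and of Tyk2. Jak2, named after its values had been seen, had a higher toxicant mean, 3.80 ± 1.53 and 4.74 ± 0.738 RPKM in the control and toxicant groups (log2 fold change 0.34 ± 0.19 SE, limma adjusted p = 0.282), and -0.079 with the covariate. Ptpn2, a phosphatase named on the same ground, was likewise at 2.77 ± 1.33 and 3.78 ± 0.777 RPKM (log2 fold change 0.45 ± 0.23 SE, limma adjusted p = 0.256), and -0.014 with the covariate.

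Of the genes that induce interferons, 16 were tested, 13 were lower and 6 were so at an unadjusted p under 0.05 (median -0.17), beside 70.0% and 17.0% of all genes. The adaptor Myd88 had means of 1.58 ± 0.243 and 1.15 ± 0.195 RPKM in the control and toxicant groups, its kinase Irak1 8.17 ± 0.327 and 7.11 ± 0.488 RPKM, the Toll-like receptor chaperone Unc93b1 3.58 ± 0.478 and 2.92 ± 0.309 RPKM and Irf2bp2 13.2 ± 1.39 and 10.6 ± 0.621 RPKM. Their limma adjusted p-values ran from 0.193 to 0.223.

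Among 58 other induced genes found, 23 were tested, 20 were lower and 7 were so at an unadjusted p under 0.05 (median -0.20), beside the same 70.0% and 17.0%. B2m, the light chain of class I histocompatibility molecules, was at 59.9 ± 4.51 RPKM in the controls and 44.2 ± 4.96 RPKM in the toxicant group, and no toxicant library reached the lowest control, as for 2.03% of all genes (log2 fold change -0.44 ± 0.093 SE, limma adjusted p = 0.153). Cnp had means of 77.9 ± 17.2 and 54.3 ± 5.78 RPKM, Cmpk2 3.98 ± 0.244 and 3.39 ± 0.275 RPKM and Ifitm1 0.763 ± 0.256 and 0.494 ± 0.0859 RPKM in the control and toxicant groups (limma adjusted p = 0.201, 0.217 and 0.223). Cnp is also an enzyme of myelin. Of the other GTPases, 1 was tested: Irgm2 was at 0.630 ± 0.0649 RPKM in the controls and 0.422 ± 0.0888 RPKM in the toxicant group (log2 fold change -0.30 ± 0.093 SE, limma adjusted p = 0.207), and again no toxicant library reached the lowest control. The toxicant means of Irgm2 and Ifitm1 lay under the filter of 0.5 RPKM. Both genes were therefore tested only through their controls, and their differences are given as description only. Without control 2, the genes named from these lists passed as lower except Jak1, Tyk2, Ifitm1, Irgm2, Jak2 and Ptpn2. Jak2 and Ptpn2 had higher toxicant means. For the genes that passed, limma adjusted p ran from 0.0227 to 0.0474, and 28.1% of all genes passed as lower in the same fit.

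Marker genes of several cell types had lower means as well. Of all genes tested, 70.0% had a log2 fold change below 0 (median -0.11, and -0.03 with the covariate). The RPKM of all genes summed to 253824 to 289101 in controls and 245790 to 272780 in toxicant libraries. Of 16 tested microglia markers 16 had lower means (median log2 fold change -0.25, and -0.09 with the covariate), and their summed level was 167 to 228 RPKM in controls and 141 to 176 RPKM in toxicant libraries. Of 14 endothelial markers 14 had lower means (median -0.27, and -0.26 with the covariate), with sums of 87.8 to 103.7 RPKM and 73.0 to 83.4 RPKM that did not overlap. Of 11 oligodendrocyte markers 9 were lower (median -0.51, and -0.34 with the covariate), with sums of 644 to 727 and 452 to 629 RPKM that did not overlap either. Of 10 neuronal markers 8 were lower (median -0.16, and -0.023 with the covariate), with sums of 1045 to 1272 and 935 to 1132 RPKM. At an unadjusted p under 0.05, the neuronal list held 3 lower genes and 1 higher gene, Gad2, beside 17.0% and 3.33% of all genes. At that level 9 of 16 microglia, 9 of 14 endothelial and 8 of 11 oligodendrocyte markers were lower. So were 3 of 10 astrocyte and 0 of 8 choroid plexus markers, and none in these lists was higher. Astrocyte markers were lower in 8 of 10 (median -0.15, and -0.072 with the covariate). Choroid plexus markers were lower in 8 of 8 (median -0.62, and -0.42 with the covariate), with sums of 17.7 to 2907 and 15.8 to 1816 RPKM, highest in control 3 and toxicant 2. No leukocyte marker of 12 passed the filter, their sums were 0.25 to 0.59 and 0.10 to 0.59 RPKM, and Ly6g was at 0 in every library. The part of these markers in the members' values was not tested.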

How the data were processed

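Poly(A)-selected RNA of 12 hippocampi had been sequenced as single reads, per the labels' protocols. The authors deposited 1 table of RPKM values for 41743 genes, per the file headers. For the aligner, counting program and build: not given in the sources used here. Multiplying RPKM by exon length in GENCODE M21 (GRCm38; 41675 IDs matched) recovered whole reads, within 0.05 reads, for 98.3% to 98.4% of the values of a library, and these gave the depths.

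Values were analysed as log2(RPKM + 0.5) with limma 3.58.1 in R 4.3.3 (lmFit, eBayes with trend, two-sided), over the 13493 genes averaging 0.5 RPKM or more, with Benjamini-Hochberg adjustment over all of them and a threshold of 0.05. Identical columns counted once. The fit was tested on simulated data. P-values measure the spread between these libraries. The members and lists were chosen with earlier results of these data known. Values by library are given for the 2 tested members of each role with the smallest unadjusted p (3 for antiviral effectors) and for Isg15, Ifit1, Irf7 and Stat2. Of each pathway list the 4 smallest p-values were named, besides Jak1, Tyk2, Ifnb1 and Ifng, and 1 gene is not reported here. Alternatives covered the pseudocount, filter, scaling, GC content, share of reads on genes, a replicate block, sample weights, voom on recovered reads and leaving out libraries. Promoter sequences are from RefSeq (GRCm38.p6), and gene positions from GENCODE.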

Additional observations from a re-analysis of the deposited data

Results flagged for a closer look

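Bst2 stood out in toxicant 2, at 3.80 RPKM, while the other 5 toxicant libraries lay between 1.52 and 1.99 RPKM. Toxicant 2 was also the toxicant library with the highest sum of choroid plexus markers (1816 RPKM), as control 3, the highest control for Bst2, was among the controls (2907 RPKM). The part of these markers in the value was not tested. The gap to the nearest library was 0.793 of the group's whole range. Of 52 groups of libraries examined (26 members in each of 2 exposure groups) this was the 1 so marked, where chance marks about 1 group in 20, or 2.6 here.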

How the results depend on the processing

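No member passed the adjusted threshold under 23 of the 25 alternatives, and the exceptions were sample weights, with 17 members, and leaving out control 2, with 9 (range over single libraries left out, 0 to 9). The count of members lower at an unadjusted p under 0.05 was 3 under median-ratio scaling, 3 with the GC trend removed, 14 with sample weights and 4 to 10 with single libraries left out. Of all genes, 5.14% were lower at that level under median-ratio scaling and 7.76% with the GC trend removed. Sample weights called 70.8% of all genes at the adjusted threshold. The unadjusted shares with sample weights or single libraries left out are not given here. The count whose groups did not overlap was 0 with a minimum of 1 RPKM, 2 with the GC trend removed, 5 without control 1 and control 2 (chosen after seeing the data), and 1 to 5 with single libraries left out. In the main fit it was 1, beside 2.03% of all genes. The share of all genes is not given for the other settings, so those counts cannot be set against a background. The median log2 fold change of the members was -0.012 with the GC trend removed, and -0.16 to -0.12 with single libraries left out. Of 1010 values over genes and alternatives, 45 turned in sign, and 10 of the 26 tested members never turned. Signs turned as follows, as log2 fold changes, and the cause was not tested. Under median-ratio scaling the values were Stat2 0.075, Irf2 0.013, Irf9 0.050, Ifit3 0.093, Dtx3l 0.047, Jak1 0.014 and Tyk2 0.045. Under quantile normalization the value was Jak1 0.011. Adjusted for reads on genes they were Eif2ak2 -0.15, Adar 0.0037, Ifit2 -0.076, Ifi27 0.060, Gbp3 -0.20 and Gbp7 -0.19. With the GC trend removed they were Adar 0.0087, Stat2 0.13, Irf3 0.036, Irf9 0.097, Ifit3 0.074, Isg15 0.0050, Gbp7 -0.088, Igtp 5.72e-06 and Tyk2 0.11. With sample weights they were Stat2 0.064, Irf9 0.075, Ifit3 0.24, Dtx3l 0.037 and Irgm1 0.0051. With limma voom on recovered reads the value was Ifit3 0.021. Without control 1 and control 2 they were Irf9 0.00022 and Ifi35 -0.016. Without control 3 and toxicant 2 (chosen after seeing the data) they were Ifit3 0.12, Dtx3l 0.0030 and Gbp7 -0.032. With single libraries left out, ranges that crossed 0 were Gbp3 -0.043 to 0.24, Gbp7 -0.020 to 0.11, Ifit3 -0.088 to 0.13, Stat2 -0.071 to 0.0062 and Dtx3l -0.067 to 0.0085.

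With the label number as a replicate block, 0 members passed, 6 were lower at an unadjusted p under 0.05 and the median was -0.15. The numbers were not taken to pair the animals: deviations of same-numbered libraries correlated at 0.62, 0.28, -0.30, 0.32 and 0.27, and for 2 of 5 numbers the best match was their own. Of the 15 members under the filter, the mean was 1.55 to 84.5 reads a library, which limits how precisely their levels are known.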
